A study of Mus musculus with 72 samples.

Results

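At the highest dose of tertiary butyl alcohol the liver libraries of this mouse series differed widely in how evenly their counts were spread over probes, and the flattest are set here against the most concentrated. The assay was TempO-Seq, in which pairs of detector oligos are ligated on chosen transcripts and sequenced, run on liver scraped from sections of formalin-fixed, paraffin-embedded tissue. Female B6C3F1 mice, 9 to 11 weeks of age and housed singly, drank water with 0, 10, 20 or 40 mg/mL of tertiary butyl alcohol (TBA) for 14 or 28 d. There were 9 animals in each of 8 groups, 72 libraries in all, and the series asks whether thyroid adenomas of TBA-treated mice could follow from an anti-thyroid action.

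The libraries were chosen by a readout. For each 40 mg/mL library of at least 100000 counts, the share of all counts held by its own 20 most abundant probes was computed, and within each duration the 4 libraries of lowest share (flat) were compared with the 4 of highest share (concentrated). That gave 16 of 72 libraries, 8 flat and 8 concentrated, all from animals given 40 mg/mL. Every flat against concentrated value below therefore comes from the same counts that set the split and is a description with no test. Tests were made on the share by labelled dose, and on the 54 libraries at 0, 10 and 20 mg/mL, which took no part in the choice. The dose contrasts of features drew their estimate of spread from all labelled groups, the 40 mg/mL libraries included.

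A liver section is mostly hepatocytes, and much of a hepatocyte's messenger RNA is translated on the endoplasmic reticulum (ER), the membrane system where secreted and membrane proteins are made. Such proteins usually begin with a hydrophobic signal peptide or carry hydrophobic membrane spans, by which the ribosome and its messenger RNA are brought to the ER surface. Messenger RNAs of cytosolic proteins, ribosomal proteins among them, are translated largely on free ribosomes. This distinction recurs in the genes that separated the flat from the concentrated libraries.

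The coding starts of 8 genes, picked as examples from those described here, show it. Each line gives the first 90 coding bases, 5′ to 3′ on the coding strand, of the GENCODE transcript on GRCm38; the capitals mark the 8 codons whose residues are the most hydrophobic run within the first 30 residues. The file names no genome build and gives no probe sequence, so these are reference coding sequences and not the probes. The first 4 genes were lower in the flat libraries, the next 3 were higher, and Stat3 was lower without such a stretch.
Calr: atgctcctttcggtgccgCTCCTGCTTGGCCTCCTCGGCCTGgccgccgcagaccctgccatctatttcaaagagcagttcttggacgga
Apoa1: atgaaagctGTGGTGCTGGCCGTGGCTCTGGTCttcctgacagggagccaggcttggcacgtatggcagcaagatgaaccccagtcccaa
Fgb: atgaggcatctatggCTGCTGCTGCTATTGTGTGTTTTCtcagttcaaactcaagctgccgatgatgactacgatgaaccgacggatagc
Sdc2: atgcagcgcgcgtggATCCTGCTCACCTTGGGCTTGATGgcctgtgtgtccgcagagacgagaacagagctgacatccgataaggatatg
Aida: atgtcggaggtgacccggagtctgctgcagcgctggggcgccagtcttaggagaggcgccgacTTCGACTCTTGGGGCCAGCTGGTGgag
Tpt1: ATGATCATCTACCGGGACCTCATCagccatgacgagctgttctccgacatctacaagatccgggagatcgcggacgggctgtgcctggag
Nsmf: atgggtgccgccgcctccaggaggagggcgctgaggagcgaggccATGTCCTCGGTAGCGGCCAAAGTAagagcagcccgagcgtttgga
Stat3: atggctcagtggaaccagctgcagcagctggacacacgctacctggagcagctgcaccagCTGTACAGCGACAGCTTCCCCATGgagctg

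These stretches lie at chr8:84846709-84846798 (Calr, minus strand, 1 exon), chr9:46228957-46229162 (Apoa1, plus strand, 2 exons), chr3:83046840-83049761 (Fgb, minus strand, 2 exons) and chr15:32921246-33017131 (Sdc2, plus strand, 2 exons). Those of the other genes lie at chr1:183297519-183297608 (Aida, plus strand, 1 exon), chr14:75845429-75845678 (Tpt1, plus strand, 2 exons), chr2:25054601-25055016 (Nsmf, plus strand, 2 exons) and chr11:100911272-100911361 (Stat3, minus strand, 1 exon). On the Kyte-Doolittle scale, where higher means more hydrophobic, the capital stretch averaged 2.75 in Calr, 3.50 in Apoa1, 3.56 in Fgb and 2.56 in Sdc2. It averaged 0.21 in Aida, 1.24 in Tpt1, 1.05 in Nsmf and 0.06 in Stat3.

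The flat libraries at 14 d were replicates 7, 1, 2 and 8, with shares of 9.62%, 10.4%, 12.8% and 13.1% of counts. The concentrated ones were replicates 3, 9, 4 and 6, with 16.5%, 18.1%, 18.2% and 18.6%, so the nearest libraries across the 14 d split were at 13.1% and 16.5%. At 28 d the flat libraries were replicates 7, 6, 1 and 8, with 13.0%, 13.9%, 16.8% and 17.2%. The concentrated ones there were replicates 9, 3, 2 and 5, with 19.4%, 21.6%, 22.0% and 22.3%, and replicate 4 at 18.5% lay between and was in neither set. The split was thus relative to a duration: the flat 28 d libraries 1 and 8 had larger shares than the concentrated 14 d library 3. Replicate 5 at 14 d held 10796 counts and fell under the depth limit.

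**Figure D1:**
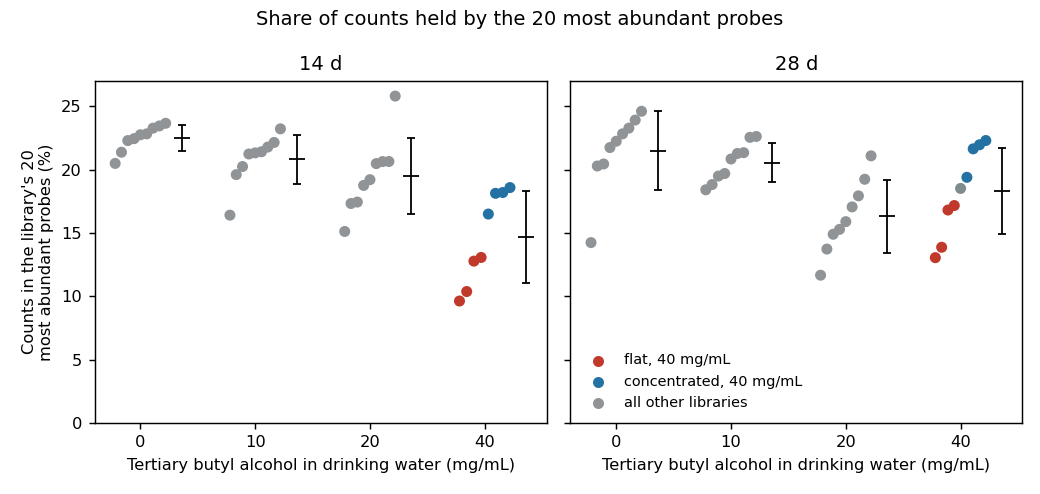
Share of counts in each library's own 20 most abundant probes (vertical axis, %) by TBA concentration (mg/mL), with 14 d on the left and 28 d on the right; each point is a library, the bars are mean and SD, and the library of 10796 counts is left out. The 4 flat libraries at 14 d lie at 13.1% or below, and a control at 28 d lies at 14.2%.

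Total counts were alike, 8.32 to 11.4 M in the flat libraries and 8.39 to 11.9 M in the concentrated ones, against 7.77 to 12.7 M in the 54 libraries at lower doses. More probes reached 1 CPM (counts scaled to library size) in flat libraries, 14937 to 16327, than in concentrated ones, 13558 to 14727. Probes with any count numbered 16772 to 18772 in flat and 17381 to 19185 in concentrated libraries, which overlap. Factors from edgeR's TMM method, a trimmed mean that sets libraries to a common scale, were 1.08 to 1.58 in flat and 0.798 to 1.12 in concentrated libraries. Without them, on total counts alone, the median feature was 0.56 log2 higher in the flat libraries; with them it was 0.06 higher, and all levels below are TMM-scaled CPM.

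The labelled dose groups, which are not set by the split, differed from control in the share at 14 d and, at 28 d, at 20 mg/mL. The spread of the share differed at 40 mg/mL and 14 d. The labels give no plate, block, extraction or sectioning batch, so whether libraries of low share have one in common could not be checked. At 14 d the share averaged 22.5% ± 1.02 at 0, 20.8% ± 1.95 at 10, 19.5% ± 3.00 at 20 and 14.7% ± 3.65 at 40 mg/mL (SD, n = 9, and n = 8 at 40 mg/mL). In exact two-sided permutation tests against control, adjusted over 6 comparisons, these gave p = 0.0349, 0.0230 and 0.000247 for 10, 20 and 40 mg/mL; the unadjusted p at 40 mg/mL, 4.11e-05, is the smallest the permutations can give. At 28 d the share averaged 21.5% ± 3.09 at 0, 20.6% ± 1.54 at 10, 16.3% ± 2.88 at 20 and 18.3% ± 3.40 at 40 mg/mL (SD, n = 9 each), with adjusted exact permutation p = 0.443, 0.00938 and 0.0652 against control. The mean at 40 mg/mL lay below that at 20 mg/mL at 14 d and above it at 28 d, a difference that was not tested.

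Libraries at 40 mg/mL and 14 d also differed more among themselves than controls did. Their mean absolute deviation from the group median was 3.2 ± 1.29 percentage points, against 0.735 ± 0.713 in controls (SD, n = 8 and n = 9; exact permutation p = 0.000329, adjusted p = 0.00197). At 28 d it was 2.71 ± 1.83 points at 40 mg/mL and 1.99 ± 2.39 in controls (SD, n = 9 each, exact permutation p = 0.495, adjusted p = 0.633). At 10 and 20 mg/mL and 14 d the spread gave adjusted exact permutation p = 0.633 and 0.162 against control. Deviations were taken from each group's own median before they were permuted. The permutation p for spread, here and below, are therefore approximate. One 28 d control, replicate 3, had a share of 14.2% and a TMM factor of 1.37, so a low share also occurred with no dose. That control decided some of the 28 d values. Without it, an alternative chosen after the data were seen, the control share averaged 22.4% ± 1.55 and its deviation 1.24 ± 0.819 points (SD, n = 8). The share at 28 d then differed from control at 10, 20 and 40 mg/mL by -1.86, -6.11 and -4.12 points (adjusted exact permutation p = 0.0279, 0.000864 and 0.0129), and the deviation at 40 mg/mL by 1.47 points (adjusted exact permutation p = 0.109).

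The 20 most abundant probes of the 16 libraries came from a pool of 53 probes, 36 seen in a flat and 48 in a concentrated library, and 6 were common to all 16. Those 6 measured Apoe, Apoa1, Serpina3k, Mup13, Apoc1 and Serpina1e, all secreted proteins. The Apoe probe, for the carrier apolipoprotein E, held a median of 1.81% of counts (1.20% to 3.01%) in flat libraries and 3.49% (1.99% to 4.43%) in concentrated ones. The Apoa1 probe, for the main protein of high-density lipoprotein, held 1.01% (0.55% to 1.52%) in flat and 2.41% (1.51% to 2.81%) in concentrated libraries. The plasma protein genes as a list held 8.99% to 18.6% of counts in flat and 17.5% to 24.7% in concentrated libraries; these shares entered the choice of libraries.

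Not every very abundant gene was lower in the flat libraries. Of the 16 genes among the 20 most abundant of at least 8 libraries, the 12 for secreted or ER proteins had log2 fold changes (flat minus concentrated) of -1.78 to -0.66. The 4 others were Uox, a peroxisomal urate oxidase, at -1.06 (SE 0.25) with overlap in both durations, Arg1, the cytosolic arginase of the urea cycle, at -0.80, Gsta3, a cytosolic glutathione transferase, at -0.28 (SE 0.22), and Fabp1, the cytosolic fatty acid binding protein, at 0.35 (SE 0.32). The 2 kinds overlapped: Alb, serum albumin, was at -0.90 (SE 0.24), -1.48 at 14 d and -0.33 at 28 d. Its flat and concentrated libraries did not overlap at 14 d and did at 28 d.

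Over all 17050 features kept, 152 were lower in the flat libraries (0.891% of features) and 33 were higher (0.194%), counting a feature when it differed by 2-fold or more and the 4 flat and 4 concentrated libraries did not overlap in either duration, in 1 direction. The 152 lower features belong to 128 genes and had a median level of 214 CPM, against 7.91 CPM for all features. The 33 higher features belong to 33 genes with a median of 3.64 CPM, and 14 of them reached 5 CPM. The lower set had a median log2 fold change of -1.25, -1.49 at 14 d and -1.05 at 28 d, and the higher set 1.33. Single libraries moved these counts: without replicate 8 or 9 at 28 d the lower features numbered 249 and 236 and the higher ones 65 and 77, and without replicate 8 or 9 at 14 d the higher ones numbered 55 and 68. On total counts alone 11 were lower and 374 higher. In these bulk samples fewer cells of a type and less RNA per cell cannot be told apart.

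Some ER chaperones and folding enzymes were past the fold and lower. Calr encodes calreticulin, a calcium-binding chaperone of the ER lumen. In flat libraries Calr was at 182, 302, 163 and 216 CPM at 14 d and at 561, 431, 384 and 1176 CPM at 28 d. In concentrated libraries it was at 1392, 1110, 1295 and 616 CPM at 14 d and at 1762, 1527, 2703 and 1329 CPM at 28 d. The highest flat library was below the lowest concentrated one in each duration, and Calr was 3.85-fold lower (log2FC -1.95, SE 0.26).

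Pdia6, a disulfide isomerase of the ER lumen, had 39.7, 73.03 and 223 CPM (lowest, median and highest of 8) in flat and 70.5, 263 and 475 CPM in concentrated libraries, and was 3.30-fold lower. Edem1, which directs misfolded glycoproteins to degradation, was 2.17-fold lower, and Ppib, a proline isomerase of the ER lumen, 2.44-fold lower (log2FC -1.28, SE 0.17). Of the 28 kept genes of the unfolded protein and integrated stress response list, 3 were past the fold and lower, Calr, Pdia6 and Edem1. In the higher direction 0 were. The list median was -0.64, against 0.03 over all 11784 genes. Values fell with level over all features, with medians of 0.27 under 5 CPM, -0.31 at 100 to 500 CPM and -0.74 above 500 CPM. List medians, here and below, were not set against genes of like level. Of the 28, 19 were below 0. Over all 11784 genes 5589 were below 0, 113 were past the fold and lower, and 17 were past it and higher. These counts are the background for each list below. Hspa5, the abundant ER chaperone BiP and the first member of that list, was looked up after the values were seen: its most abundant probe was at -1.55 (SE 0.32), without overlap at 14 d and with overlap at 28 d, so it was not past the fold.

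Among the gene lists, that of secreted plasma proteins had the most members past the fold and lower, 19. Apoa1 was at 6441, 5072, 3497 and 5811 CPM in flat libraries at 14 d and at 13291, 8956, 7290 and 10511 CPM at 28 d. In concentrated libraries it was at 16689, 21801, 26553 and 15959 CPM at 14 d and at 33851, 29572, 33504 and 15264 CPM at 28 d. Flat libraries were lower in each duration without overlap, by 3.32-fold (log2FC -1.73, SE 0.23), and the 18 controls ran from 5753 to 42175 CPM with a median of 28277.

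The fibrinogen chains polymerise into the clot, and the most abundant probes of Fga and Fgb had log2FC of -1.93 (SE 0.30) and -1.87 (SE 0.27). The third chain, Fgg, added after its values were seen, was at -0.89 (SE 0.26) and overlapped at 28 d, and less abundant probes of Fga and Fgb were at -0.63 and -0.64. Fgb had 349, 842 and 2244 CPM (lowest, median and highest) in flat libraries, 890, 2885 and 6084 CPM in concentrated libraries and 586, 3178 and 5981 CPM in controls. Others past the fold were Serpina3k, a protease inhibitor (3.42-fold), Lrg1, a leucine-rich glycoprotein of plasma (3.67-fold), Amy1, salivary-type amylase (3.69-fold), Serpinf1, an inhibitor of new vessel growth (3.26-fold), and Fn1, fibronectin (3.23-fold). Serpina3k, Mup13, Amy1 and the P450 genes have close paralogs, so their probes could take counts from relatives.

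Of 43 measured secreted plasma protein genes, 19 were past the fold and lower and 0 were higher. All 43 were below 0, against 5589 of all 11784 genes, and their median was -1.09. Of the 43, 25 lay outside the most abundant probes of the lower-dose libraries. Probes of several, Apoe, Apoa1, Ambp and Trf among them, entered the shares that set the split. These counts thus follow in part from the choice of libraries. Of 28 acute phase genes, proteins whose plasma levels shift in inflammation, 7 were lower and 0 higher, with a median of -1.10. Of these 28, 20 lay outside the most abundant probes of the lower-dose libraries. Cp, the copper carrier ceruloplasmin, was 2.81-fold lower (log2FC -1.49, SE 0.21), and Itih4, a plasma protein that binds hyaluronan complexes, 2.76-fold lower. Mup13, one of the major urinary proteins that carry pheromones, overlapped at 14 d and had log2FC -0.85 (SE 0.27); by the most abundant probe 0 of 12 measured genes of that list were past the fold, with a median of -0.48, while a minor probe of Mup7, at a mean of 0.881 CPM, was past it and lower.

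Sdc2, a cell surface proteoglycan that spans the membrane, was at 14.8, 23.4, 14.6 and 31.9 CPM in flat libraries at 14 d and at 85.3, 48.3, 38.3 and 93.9 CPM at 28 d. In concentrated libraries it was at 88.9, 81.3, 123 and 50.1 CPM at 14 d and at 203, 184, 222 and 97.3 CPM at 28 d. The durations differ in level, and within each the flat libraries were lower without overlap (log2FC -1.72, SE 0.26).

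Transporters past the fold included Slc27a5, a bile acid ligase of the ER membrane named as a carrier (2.52-fold lower), Slco1b2, an uptake carrier for bile acids and thyroid hormone (2.35-fold), and Slc1a2, a glutamate carrier of pericentral hepatocytes (2.29-fold). Slco1b2 and Slc1a2 have no hydrophobic N-terminal stretch (windows of 1.00 and -0.42) and span the membrane many times. In Slc1a2, 8 of 8 flat libraries were below all 18 controls, and 1 of 8 concentrated ones was.

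**Figure D2:**
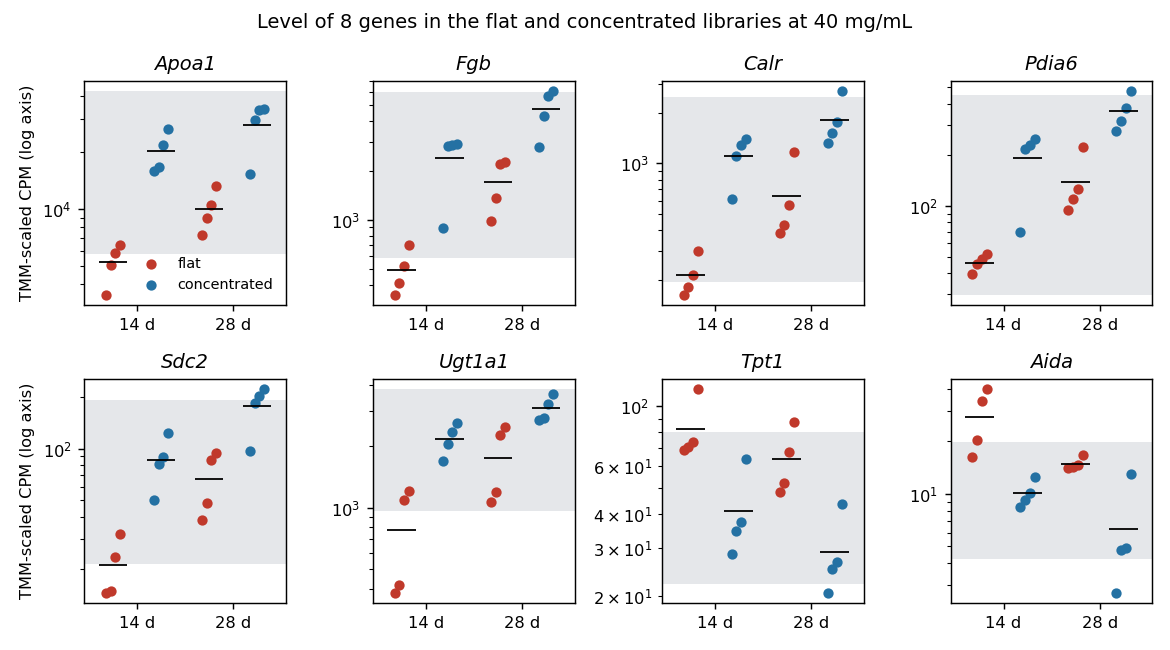
Level of 8 genes (TMM-scaled CPM, log axis) in flat and concentrated 40 mg/mL libraries at 14 and 28 d; points are libraries, lines are means of 4, and the grey band spans the 18 controls of both durations. Within each duration flat lies below concentrated without overlap in 6 genes, and above it in Tpt1 and Aida.

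A few enzymes and carriers of drug and thyroid hormone disposal were past the fold. Ugt1a1, an ER membrane enzyme that conjugates bilirubin and thyroxine, had 382, 1140 and 2476 CPM in flat, 1695, 2646 and 3625 CPM in concentrated and 965, 2836 and 3830 CPM in control libraries, and was 2.23-fold lower (log2FC -1.16, SE 0.25). Genes of the Ugt1a cluster share their last exons, so a probe there could count several of them. Of 36 cytochrome P450 genes 3 were past the fold and lower (Cyp2j5, Cyp2c68 and Cyp2d26, at -1.25, -1.04 and -1.01), 35 were below 0 and the median was -0.86. Of 15 glucuronosyltransferase genes Ugt1a1 was past the fold, and the median was -0.79. Of 17 genes of thyroid hormone transport and deiodination Slco1b2 was past the fold and lower, and the median was -0.82. Dio1, the deiodinase that activates and clears thyroid hormone, was at -0.97 (SE 0.18) and overlapped at 28 d.

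Cyp2b10, the P450 induced through the receptor CAR, did not follow the split. It was at 20.3, 419, 68.1 and 1380 CPM in flat libraries at 14 d and 66.5, 30.6, 39.3 and 1201 CPM at 28 d. In concentrated libraries it was at 51.8, 173, 99.1 and 6424 CPM at 14 d and 368, 24.7, 977 and 565 CPM at 28 d, against 23.7 to 101 CPM in controls. High and low libraries occurred on both sides, and the log2 fold change of -1.19 had an SE of 1.26.

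Stat3, a cytosolic transcription factor of cytokine signalling, was an exception to the ER pattern. Stat3 had 50.3, 68.0 and 89.2 CPM in flat libraries, 97.9, 160 and 266 CPM in concentrated ones and 53.5, 122 and 177 CPM in controls, so no flat library of either duration reached a concentrated one (2.40-fold lower, SE 0.17 on the log2 scale).

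Among the higher features, Tpt1, a cytosolic calcium-binding protein whose messenger RNA is regulated like those of ribosomal proteins, was at 116, 69.0, 73.9 and 70.6 CPM in flat libraries at 14 d and at 52.2, 67.6, 87.4 and 48.4 CPM at 28 d. In concentrated libraries it was at 37.3, 34.7, 28.6 and 64.0 CPM at 14 d and 26.7, 25.2, 20.5 and 43.5 CPM at 28 d. Flat was higher without overlap in each duration, by 2.09-fold (log2FC 1.06, SE 0.19). Aida, an axin interactor, was 2.53-fold higher (13.98, 16.5 and 39.98 CPM in flat, 2.71, 8.84 and 12.9 CPM in concentrated), and Nsmf, a factor that shuttles from synapse to nucleus in neurons, 2.06-fold higher. Tnk2 and Map4k2, both kinases, Ppp1r13b, a p53-binding protein, and Desi1, a desumoylating isopeptidase, were at 1.05 to 1.08.

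Rpl41 alone of 74 cytosolic ribosomal protein genes was past the fold (log2FC 1.23, SE 0.35, at 4.36 CPM in flat and 2.06 CPM in concentrated libraries by median); the list median was 0.27 and 13 were below 0. The list held 1.54% to 2.99% of counts in flat and 1.20% to 2.27% in concentrated libraries. Rps12-ps3, by its name a pseudogene of a ribosomal protein gene, was at 1.20, and its probe could count the parent gene. Splicing factors, listed together with nuclear long noncoding RNAs, had a median of 0.23 over 24 genes, with 0 past the fold.

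Several lists had medians between -0.23 and 0.16 and few or no members past the fold. Medians were -0.06 for 70 oxidative phosphorylation subunits, -0.14 for 31 proteasome subunits, -0.01 for 26 NRF2 antioxidant targets, 0.03 for 26 heat shock and immediate early genes, 0.01 for 28 liver transcription factors and nuclear receptors and 0.16 for 20 p53 targets, with 0 members past the fold in each. Fatty acid oxidation genes had a median of -0.23 (27 genes) and bile acid genes -0.16 (22 genes, of which Slc27a5 was past the fold). Cell cycle genes stood apart from these, with a median of 0.98, 5 of 31 below 0 and 0 past the fold; their most abundant member, Pcna, was at -0.26.

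The lipid synthesis lists differed in sign between durations. Cholesterol synthesis genes had a median of -1.20 at 14 d and 0.51 at 28 d (20 genes), and fatty acid and triglyceride synthesis genes -0.59 at 14 d and 0.63 at 28 d (22 genes). Sc5d, a late enzyme of cholesterol synthesis, was at -1.27 at 14 d and -0.13 at 28 d, and Fads2, a fatty acid desaturase, at -1.67 and -0.82. The difference between durations was not tested, and 0 members of either list were past the fold.

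Of the zonal lists, periportal genes had a median of -0.93 (19 genes, all below 0), with Apof, a secreted lipid transfer inhibitor, 2.77-fold lower. Pericentral genes had a median of -0.26 (20 genes, 14 below 0), with Slc1a2 past the fold. Over all 11784 genes, 5589 were below 0.

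Markers of other liver cells differed little. Medians were 0.10 for Kupffer cells (12 genes), -0.16 for sinusoidal endothelium (14) and 0.09 for stellate cells and fibroblasts (14), with 0 past the fold. Their summed levels overlapped: 158 to 436 CPM in flat and 147 to 465 CPM in concentrated libraries for Kupffer markers. Endothelial markers summed to 529 to 702 CPM in flat and 537 to 797 CPM in concentrated libraries, and stellate markers to 346 to 597 CPM in flat and 315 to 606 CPM in concentrated libraries. Hepatocyte markers, 4 of 13 past the fold and lower with a median of -0.82, summed to 16054 to 45809 CPM in flat and 37392 to 78060 CPM in concentrated libraries. That list includes Apoa1, Trf, Apoc3 and Fgb, secreted proteins whose probes entered the shares that set the split. Of the 13, 7 lay outside the most abundant probes of the lower-dose libraries. The lower sum thus follows in part from the choice of libraries and is no measure of hepatocyte number.

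Blood and duct markers were sparse, and one list stood out at 14 d. Erythroid markers summed to 158, 99.4, 183 and 4.52 CPM in flat libraries 1, 2, 7 and 8 at 14 d, against at most 39.8 CPM in concentrated libraries and 48.3 CPM in controls. At 28 d the flat libraries had 22.4 to 49.2 CPM. The median over 3 kept erythroid genes was 1.25, with 0 past the fold, and their part in the results was not tested.

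Neutrophil and monocyte markers summed to 10.9 to 50.9 CPM in flat and 9.14 to 31.3 CPM in concentrated libraries (median 0.64, 3 kept genes). Lymphocyte markers summed to 6.66 to 17.6 CPM in flat and 3.83 to 18.1 CPM in concentrated libraries (-0.10, 8 genes), and bile duct markers to 23.7 to 61.8 CPM in flat and 19.5 to 49.5 CPM in concentrated libraries (1.42, 4 genes). Pancreatic acinar markers summed to 0.866 to 7.40 CPM in flat and 2.32 to 11.2 CPM in concentrated libraries (-1.25, 2 genes). Markers of tissues other than liver summed to 14.5 to 32.4 CPM in flat and 13.0 to 30.2 CPM in concentrated libraries (0.58, 3 genes), and adipocyte markers stayed under 1 CPM with none kept. No list had a member past the fold. In all 16 libraries 2 of 11 duct markers, Epcam among them, and 1 of 13 lymphocyte markers, Cd8a, had 0 counts. So did 5 of 12 pancreatic markers, Prss2 and Cpa1 among them, and 3 of 6 adipocyte markers, Adipoq among them. Ngp of 11 neutrophil and monocyte markers and 10 of 28 markers of other tissues were also at 0. The other members of these lists had counts in some of the libraries.

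What the lower genes share was then counted over their encoded proteins, a feature chosen after the data were seen and so a description. For 16739 of 17050 features (98.2%) a coding transcript was found, and a protein was scored by its most hydrophobic 8 residues within the first 30. A window of 2.5 or more was present in 105 of 150 lower features (70.0%), 0 of 32 higher features and 14.7% of all. At 2.0 the shares were 85.3%, 15.6% and 23.4%, and at 3.0 they were 37.3%, 0% and 7.26%. A membrane-like run, 19 residues averaging 1.6 or more beyond residue 30, was present in 41.3% of lower, 18.8% of higher and 28.8% of all features. Of 3568 features with such a run and no N-terminal window, 30 (0.841%) were past the fold and lower, with a median of 0.02 over all of them, against 15 of 10704 (0.140%) with a median of 0.11 for features with neither. One or the other was present in 135 of 150 lower features (90%), 6 of 32 higher (18.8%) and 36.1% of all.

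The lower features were also abundant, so the comparison was repeated within levels of abundance. Above 500 CPM the median log2 fold change was -1.05 with a window of 2.5 or more (137 features) and -0.41 without (137 features). At 100 to 500 CPM it was -0.74 with and -0.22 without, at 20 to 100 CPM -0.39 and -0.04, at 5 to 20 CPM -0.18 and 0.10, and under 5 CPM 0.06 and 0.29. The features with such a window were lower in each of the 5 levels and in both durations, and in either kind the value was lower at higher abundance. Transcript GC content and length had little relation to the log2 fold change across features (Spearman 0.136 and 0.0474), less than the level in controls had (-0.371); features are not independent replicates.

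**Figure D3:**
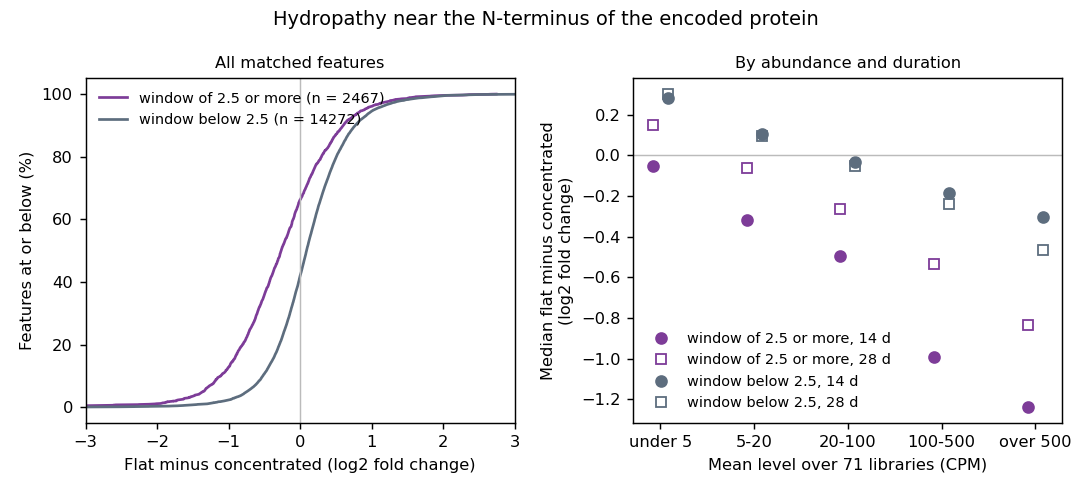
Left, cumulative share of features (%) by log2 fold change, flat minus concentrated, for proteins with an N-terminal hydrophobic window of 2.5 or more and below 2.5. Right, medians by mean level (CPM) at 14 d (filled) and 28 d (open); the features with such a window lie lower at each level.

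The 2 durations have separate animals. With CPM scaled over all 71 libraries, at 14 d alone 539 features were lower (3.16%) and 240 higher (1.41%), and at 28 d alone 202 were lower (1.18%) and 314 higher (1.84%). The lists shared 86 lower features, 16.0% of the 14 d list and 42.6% of the 28 d list, and 28 higher features, 11.7% and 8.92%. Of the 539 lower at 14 d, 491 were also below 0 at 28 d, with a median there of -0.70. Of the genes past the fold and lower, 69 had a further kept probe, and 23 had 2 or more probes past the fold. Among further probes of these genes that were not past the fold, 60 of 71 were below 0, with a median of -0.66. Over all 17050 features, 7745 were below 0.

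The same direction was tested in the 54 libraries at 0, 10 and 20 mg/mL, whose shares ran from 11.7% to 25.8%. There edgeR's quasi-likelihood test gave each feature a slope on the share within the 6 labelled groups, as log2 change per 10 percentage points less share, so that a negative slope means a lower level in flatter libraries. Features ever among the 20 most abundant of those libraries (56) were left out of the counts. They were left out by probe, so less abundant probes of the same genes could still be counted. With Benjamini-Hochberg adjustment 1726 of 16994 features had a negative slope (10.2%) and 1246 a positive one (7.33%). A library's share and its CPM come from the same counts, so a slope is a relation within libraries and not to an outside measure.

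Of the 152 lower features 134 lay outside those shares, and 131 of the 134 (97.8%) passed with a negative slope. The median was -1.54, against 0.05 for all features. The lower features were abundant, and negative slopes were more common at high levels. With a window of 2.5 or more, 84.2% of features above 500 CPM and 70.7% at 100 to 500 CPM passed with a negative slope. With a window below 2.5, 37.4% and 29.5% did. These levels include the lower features themselves. Of the 33 higher features 13 (39.4%) passed with a positive slope, and all 33 were above 0. Calr had a slope of -2.23 (SE 0.29, adjusted p = 1.09e-07), Pdia6 -2.43 (SE 0.34, adjusted p = 6.49e-07), Sdc2 -2.29 (SE 0.33) and Tpt1 1.01 (SE 0.24, adjusted p = 0.00143). Outside the shares, the smallest p among negative slopes were those of Stat3 (-1.78, SE 0.18), Itih4, Ppib, Clu, which encodes the secreted chaperone clusterin, and Fn1. Cyp2b10 had a slope of 0.76 (SE 0.73, adjusted p = 0.534).

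Among the smallest p of positive slopes were those of Mlxipl, the carbohydrate-responsive factor ChREBP (1.45, SE 0.17), Plekha5, a phosphoinositide-binding protein, Gm9493, a predicted gene, and Rabgap1l, a regulator of Rab proteins. At 40 mg/mL Mlxipl had 123, 205 and 266 CPM in flat and 67.6, 96.8 and 200 CPM in concentrated libraries. Its libraries overlapped in both durations, with a log2 fold change of 0.81 (SE 0.19).

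Some lists had slopes on the side of their flat minus concentrated values. Over all 11737 genes counted in the slope, 1309 had a lower level in flatter libraries and 846 a higher one. These counts are the background for each list here, and no list was set against genes of like level. Of 25 plasma protein genes counted there, 18 had a lower level in flatter libraries and 0 a higher one. For ribosomal protein genes 30 of 74 were higher and 3 lower, and for splicing factors 11 of 24 were higher. Sinusoidal endothelial markers had a median of -0.16 between flat and concentrated libraries and -0.36 in the slope (5 of 14 lower). Other lists did not: Kupffer markers had a median of 0.10 between flat and concentrated libraries and -0.38 in the slope (2 of 12 lower), stellate markers 0.09 and -0.27 (4 of 14 lower), neutrophil and monocyte markers 0.64 and -0.11, and fatty acid oxidation genes -0.23 and 0.05. A window of 2.5 or more was present in 37.6% of features with a negative slope and 4.10% of those with a positive one.

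Calls came mostly from 28 d libraries. Among 14 d libraries alone 80 features were lower and 22 higher, including 24 of the 134, with 133 of 134 below 0 and a median of -1.03; among 28 d libraries alone 129 of the 134 passed, with a median of -1.85. Without the 28 d control of low share, replicate 3, 1110 features were lower and 605 higher, and 125 of the 134 passed. On total counts alone 119 of the 134 passed, while the counts over all features turned to 470 lower and 8069 higher, with the median feature at 0.71.

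**Figure D4:**
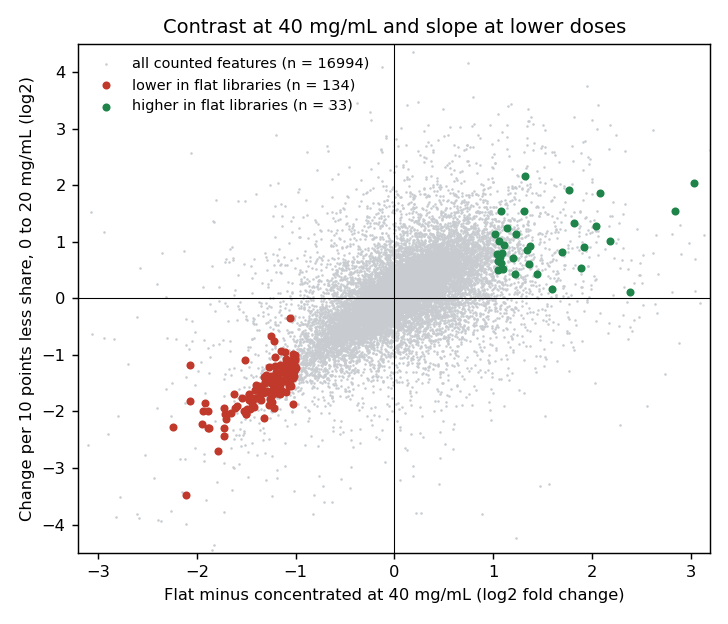
For each feature outside the shares, log2 fold change between flat and concentrated libraries at 40 mg/mL (horizontal) and slope per 10 percentage points less share in the 54 libraries at 0 to 20 mg/mL (vertical, log2). The 134 lower features all lie below 0 on the vertical axis and the 33 higher ones above it; 28 features fall outside the axes.

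Library by library, transcripts with and without the N-terminal hydrophobic window were compared, leaving out the most abundant probes. The window was chosen after the data were seen, from features that separated these same flat and concentrated libraries. Their values here are therefore a description and not a separate test, and ER targeting itself was not measured. For each library the median log2 deviation from the control mean of its duration was taken over 1377 features with a window of 2.5 or more, and that of 8353 features below 2.5 was subtracted. Flat 14 d libraries lay at -0.75 to -0.63 and flat 28 d libraries at -0.42 to -0.01. Concentrated 14 d libraries had a median of -0.07, with replicate 9 at -0.54, and concentrated 28 d libraries lay at 0.02 to 0.15. Controls had a median of 0.02 and ran from -0.58, in replicate 3 at 28 d, the one of low share, to 0.19.

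The share and this difference therefore did not rank every library alike. Replicate 9 of the concentrated 14 d libraries was low in Pdia6 (70.5 CPM), Fgb (890 CPM) and Calr (616 CPM) although its share was 18.1%, and it held the highest Cyp2b10 level of the 16. The flat 28 d libraries all lay within the range of the controls, which control replicate 3 at 28 d sets; the next lowest control was at -0.07, and against that flat replicate 1 at -0.01 was within the range and replicate 8 at -0.11 below it.

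**Figure D5:**
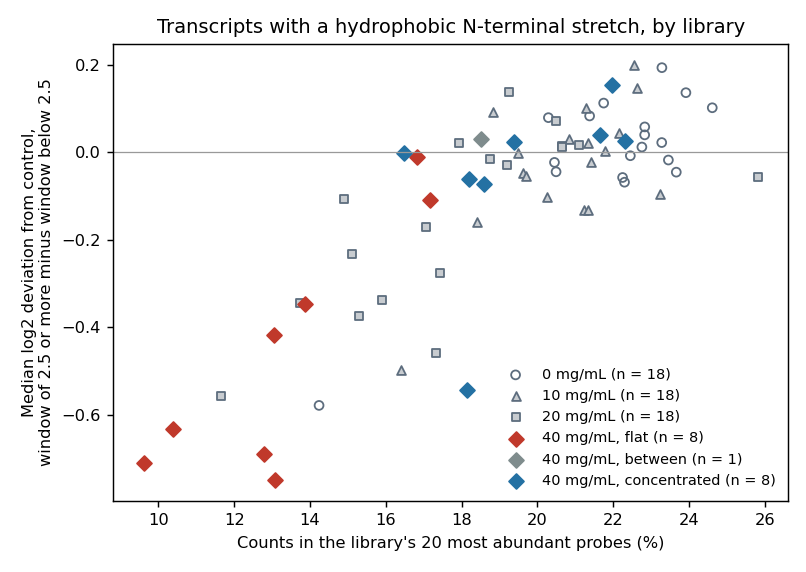
Difference between transcripts with and without an N-terminal hydrophobic window (median log2 deviation from control, vertical) against the share of counts in the 20 most abundant probes (horizontal, %) for 71 libraries. The 4 flat 14 d libraries lie lowest, from -0.75 to -0.63, followed by a 28 d control at -0.58, a 20 mg/mL 28 d library at -0.56 and a concentrated 14 d library at -0.54.

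In the labelled contrasts with control, which share their control animals within a duration, the 152 lower features had medians of -0.04 at 10 and -0.23 at 20 mg/mL for 14 d, and of -0.20 and -0.64 for 28 d, against -0.00266 to 0.03 over all features. The estimate of spread behind the p of these contrasts came from all labelled groups, so the libraries of the split entered it. At 20 mg/mL for 28 d all 152 were below 0, as were 46.5% of all features, and 1 of the 152 passed edgeR's test. Among all 17050 features 16 passed that test as lower and 11 as higher. In edgeR's quasi-likelihood test at that dose and duration Calr had log2FC -1.10 (adjusted p = 0.138), Apoa1 -0.94 (adjusted p = 0.125) and Cyp2c68 -0.83 (adjusted p = 0.0506), none of which passed 0.05. Cyp2b10 there was at 3.78 (adjusted p = 0.0497 with edgeR), and the call was lost with DESeq2's size factors (adjusted p = 0.0523) and with no filter (adjusted p = 0.0816), and held in DESeq2 itself (adjusted p = 7.04e-05).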

How the data were processed

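The deposited table holds whole-number read counts per probe, neither scaled nor logged by the authors; bcl2fastq 2.20 and Bowtie are named in the submitters' processing notes, while the build and counting tool are not given in the sources used here. Columns were matched to samples by their labels and groups taken from dose and duration. The libraries, gene lists and tests were chosen with earlier results of these data known. filterByExpr over the 8 groups kept 17050 of 30146 probes (99.9% of counts). Flat minus concentrated log2 fold changes came from edgeR 4.0.16 in R 4.3.3 (TMM, duration as block), given without p. Slopes and dose contrasts used edgeR's quasi-likelihood test with robust fitting, Benjamini-Hochberg adjusted at 0.05. The methods were tested on simulated data. The most abundant probe stood for a gene. Genes to name were those in the 20 most abundant of 8 or more libraries, the 10 largest each way past the fold at 5 CPM or more, up to 4 per list past the fold or else the most abundant, the 5 smallest slope p each way, and Cyp2b10, Ugt1a1, Dio1, Alb, Ttr and Malat1, the last not analysed here. A few are described by counts only, and 1 is not reported here. Hydropathy came from GENCODE vM21 coding sequences. Replicates are separate animals numbered in listing order; no 2 columns were identical. Alternatives were DESeq2 1.42.0 and its size factors, limma 3.58.1, total counts, other filters, summed probes, other shares, single durations and each library left out. Counts bound precision by counting error only.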

Additional observations from a re-analysis of the deposited data

Results flagged for a closer look

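Single libraries stood apart from the rest of their group in 10 of 156 groups looked at, where chance flags about 1 in 20. Among the labelled groups, the share of control replicate 3 at 28 d, 14.2%, lay far from the other 8. On the log2 CPM scale, 6 of the others concern replicate 9 of a concentrated group. At 14 d concentrated replicate 9 was low in Fabp1 (9.71), Fga (10.7), Fgb (9.80) and Pdia6 (6.14), and at 28 d concentrated replicate 9 was low in Apoa1 (13.9) and in Selenop (11.8), a secreted selenium carrier; these are 2 different animals. Flat replicate 1 at 14 d stood apart in Trf, the iron carrier transferrin (10.9), and in Tpt1 (6.86), and concentrated replicate 6 at 14 d in Tnk2 (1.83).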

How the results depend on the processing

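The main counts were 152 features lower and 33 higher between flat and concentrated libraries. They became 11 and 374 on total counts alone, 95 and 15 with probes summed per gene, 385 and 232 with 3 against 3 libraries, and 538 and 235 among 14 d libraries alone; 28 d libraries alone gave 313 higher. These counts for 1 duration use CPM scaled within that duration, and the 539, 240 and 314 given above use CPM scaled over all libraries. With each library left out they ran from 128 (without replicate 7 at 28 d) to 249 lower and from 30 (without replicate 6 at 14 d) to 77 higher. Of the 152, 148 were still past the fold with DESeq2, with its size factors and with limma.

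The slope counts, 1726 lower and 1246 higher, became 470 and 8069 on total counts alone and 80 and 22 among 14 d libraries alone. With each library left out they ran from 1110 to 2117 lower and from 605 to 1697 higher, lowest without control replicate 3 at 28 d and highest without replicate 5 at 20 mg/mL and 14 d. On total counts alone the slopes of C1qb (0.16), Ecm1 (0.23), Ei24 (0.16), Atp5a1 (0.034), Psmd8 (0.20) and Rxra (0.056) turned positive, and in control libraries alone that of C1qb did (0.018).

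Against control, edgeR called 0 features at 10 mg/mL in either duration (736 at 14 d and 707 at 28 d had unadjusted p under 0.05), while DESeq2 called 12 higher at 14 d and 1 higher at 28 d. At 20 mg/mL and 14 d edgeR called 1 lower and 5 higher, with 3 higher under no filter, and DESeq2 6 lower and 13 higher. At 20 mg/mL and 28 d edgeR called 16 lower and 11 higher; with DESeq2's size factors it called 0 and 0 (2653 unadjusted), with no filter 0 and 0 (4651 unadjusted), and DESeq2 itself called 96 and 127. The share at 40 mg/mL and 28 d passed when 10 probes were used (difference -3.03 percentage points, adjusted exact permutation p = 0.0387), and the spread at 20 mg/mL and 14 d when 50 were (2.10 points, adjusted exact permutation p = 0.0271). Without control replicate 3 at 28 d, chosen after seeing the data, the share at 28 d passed at 10 mg/mL (-1.86 points, adjusted exact permutation p = 0.0279) and 40 mg/mL (-4.12 points, adjusted exact permutation p = 0.0129), and the difference in spread at 10 mg/mL, -0.728 points with it, was 0.0244. The cause was not tested in any of these.

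Among results for single features, 4917 alternatives left the value on its side, 226 moved it, 106 left it short of the threshold and 7 turned its sign. No paired analysis was possible because replicate numbers follow listing order and pair no animals. Counts limit the rarest features most: 20 of the 33 higher ones lay under 5 CPM in controls.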
